A study of Mus musculus with 3 samples.

Results

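Dividing mesenchymal cells of the mandibular condyle, the part of the lower jaw that moves in the temporomandibular joint, were described at birth (P0) and at embryonic day 16.5 (E16.5). A cell was counted as cycling when it held at least 1 UMI (unique molecular identifier, a counted transcript) of Mki67 and at least 1 of Top2a, fewer than 3 Col9a1 UMIs per 10000, and no UMI of Ptprc or Pecam1. The Col9a1 limit leaves out most chondrocytes, and the limits on Ptprc and Pecam1 leave out blood and endothelial cells. Cells also needed at least 500 detected genes and at most 10% mitochondrial UMIs. The rule found 1402 cells, 396 at P0 and 1006 at E16.5, among 8561 kept cells of these libraries and 16589 in the whole series. They are compared with non-cycling cells, which met the same limits and held no UMI of either gene, 1428 at P0 and 1567 at E16.5.

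Condyles came from wild-type C57BL6 mice at E16.5, P0 and 13 weeks (13w), with 7 to 20 mice pooled at each age. The tissue was digested with collagenase and dispase, and cells that took up Calcein and excluded DAPI, a sort for live cells, were profiled with the 10x Genomics 3′ chemistry. Each age is 1 library, so no difference has a replicate check and none was tested. Intervals are exact 95% intervals (Clopper-Pearson for shares, Poisson for levels, conditional binomial for ratios) and cover counting error only, nothing of the spread between animals or libraries.

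A cell that divides first copies its DNA in S phase and then separates the copies in mitosis, and it makes a different set of transcripts for each task. In G1, before copying begins, D-type cyclins push the cell forward and inhibitors of cyclin-dependent kinases hold it back. In the condyle, cells divide beneath the joint surface and in the surrounding mesenchyme, and their daughters become chondrocytes, bone-forming cells or fibroblasts.

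The promoters of the cycle genes are shown because the members were chosen by transcripts of this programme. Many promoters of genes made late in the cycle hold a cell cycle homology region (CHR), and many made at the start of S phase hold E2F sites. The CHR was searched as TTTGAA or TTCGAA and the E2F site as TTTGGCGC, TTTCCCGC, TTTCGCGC or TTTGCCGC, on both strands. Each sequence is RefSeq's on build GRCm38.p6, from 250 bases before to 50 bases after the gene start, matched to the files by symbol. Letters of the searched motifs are in capitals, the rest in lower case, and a match on the opposite strand shows as its reverse complement. The first 4 are the genes of the rule and its other cycle markers, and the last 3 encode the mitotic kinase Cdk1 and the DNA helicase subunits Mcm3 and Mcm5.
Mki67 (chr7:135716330-135716629, minus strand): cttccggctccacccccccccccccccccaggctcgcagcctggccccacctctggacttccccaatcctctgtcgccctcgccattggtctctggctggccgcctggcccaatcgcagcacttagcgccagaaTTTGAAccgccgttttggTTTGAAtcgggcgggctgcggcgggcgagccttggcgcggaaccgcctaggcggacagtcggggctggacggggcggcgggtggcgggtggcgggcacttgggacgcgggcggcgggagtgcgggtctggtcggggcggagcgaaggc
Top2a (chr11:99024140-99024439, minus strand): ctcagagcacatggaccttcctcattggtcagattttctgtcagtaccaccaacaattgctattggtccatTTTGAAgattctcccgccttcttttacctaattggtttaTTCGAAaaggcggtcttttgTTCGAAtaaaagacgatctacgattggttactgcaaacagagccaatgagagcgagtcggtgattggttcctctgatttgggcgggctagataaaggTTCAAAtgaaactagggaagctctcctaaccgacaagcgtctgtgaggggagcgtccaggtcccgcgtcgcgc
Cenpf (chr1:189688037-189688336, minus strand): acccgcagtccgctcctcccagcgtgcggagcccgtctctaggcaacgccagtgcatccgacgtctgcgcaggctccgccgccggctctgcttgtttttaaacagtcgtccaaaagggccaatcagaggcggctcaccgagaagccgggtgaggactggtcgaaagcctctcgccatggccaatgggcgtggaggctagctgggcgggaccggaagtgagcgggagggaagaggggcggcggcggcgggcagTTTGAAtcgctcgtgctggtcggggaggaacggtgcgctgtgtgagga
Ube2c (chr2:164769679-164769978, plus strand): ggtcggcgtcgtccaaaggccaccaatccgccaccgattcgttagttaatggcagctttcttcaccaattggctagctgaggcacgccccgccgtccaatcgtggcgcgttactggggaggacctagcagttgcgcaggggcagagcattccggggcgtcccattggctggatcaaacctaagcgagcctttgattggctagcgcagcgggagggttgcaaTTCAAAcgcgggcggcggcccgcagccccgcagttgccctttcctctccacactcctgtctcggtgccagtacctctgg
Cdk1 (chr10:69352863-69353162, minus strand): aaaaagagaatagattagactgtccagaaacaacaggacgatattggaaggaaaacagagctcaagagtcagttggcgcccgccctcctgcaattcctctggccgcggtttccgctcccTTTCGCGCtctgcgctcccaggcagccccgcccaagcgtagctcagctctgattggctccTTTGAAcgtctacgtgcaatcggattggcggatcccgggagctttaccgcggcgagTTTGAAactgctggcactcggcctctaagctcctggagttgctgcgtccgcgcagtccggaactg
Mcm3 (chr1:20820263-20820562, minus strand): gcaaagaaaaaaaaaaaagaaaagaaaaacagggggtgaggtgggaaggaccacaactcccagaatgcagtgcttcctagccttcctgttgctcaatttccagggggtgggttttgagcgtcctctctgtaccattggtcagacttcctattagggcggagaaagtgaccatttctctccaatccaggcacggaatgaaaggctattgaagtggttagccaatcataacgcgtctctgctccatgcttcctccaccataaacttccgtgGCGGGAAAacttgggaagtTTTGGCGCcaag
Mcm5 (chr8:75109259-75109558, plus strand): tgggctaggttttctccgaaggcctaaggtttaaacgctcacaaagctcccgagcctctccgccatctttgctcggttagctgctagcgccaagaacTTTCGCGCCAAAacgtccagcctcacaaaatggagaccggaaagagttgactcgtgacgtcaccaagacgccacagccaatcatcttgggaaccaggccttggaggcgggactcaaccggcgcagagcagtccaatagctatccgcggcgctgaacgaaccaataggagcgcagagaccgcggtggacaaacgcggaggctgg
Top2a held 4 CHR matches, Mki67 and Cdk1 held 2 each, and Cenpf and Ube2c held 1 each. Mcm3 and Mcm5 held 2 E2F matches each, and those of Mcm5 share bases. Cdk1 also held 1 E2F match. A CHR match stood in 77.1% of 35 promoters of the mitosis list (33 of 36 genes matched the table), against 19.2% of all 32851 promoters in the table. An E2F match stood in 40.7% of 27 promoters of the replication list (24 of 30 genes matched), against 2.26% of all promoters. The other pairing gave 14.8% of replication promoters with a CHR match and 2.86% of mitosis promoters with an E2F match. Promoters of the fibroblast list held a CHR match in 4 of 16 and an E2F match in 0. These counts describe letters in a window, not bound sites.

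The libraries held 4853 barcodes at P0 and 5458 at E16.5, of which 3999 and 4562 were kept, with medians of 17954 and 17401.5 UMIs. Over 10% mitochondrial UMIs excluded 16.5% of P0 barcodes and 15.4% of E16.5 barcodes. The P0 and E16.5 libraries shared 15 barcodes, and each shared 10 or 13 with the 13w library. Cycling cells were deeper than non-cycling cells, with a median of 19737.5 UMIs against 10562 at P0 and 22779 against 12116 at E16.5. The median mitochondrial share was 3.53% in P0 cycling cells against 3.62% in P0 non-cycling cells, and 2.13% in E16.5 cycling cells against 2.30% in E16.5 non-cycling cells. Because depth moved with the cycling class, ratios were also computed only in cells of 10000 to 30000 UMIs (the depth window below), and the value is given where it changed a result. The window narrows the gap in depth and does not close it, with a mean of 19345 UMIs in cycling cells against 14847 in non-cycling cells at P0 and of 20153 against 15875 at E16.5.

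The cells carried the transcripts their name asks for. Cenpf, a kinetochore protein, stood at 540 CPM (UMIs per 1000000 UMIs of the class) in P0 cycling cells against 2.71 CPM in P0 non-cycling cells, and at 486 CPM against 7.68 CPM at E16.5. Ube2c, which tags mitotic proteins for destruction, stood at 403 CPM against 9.88 CPM at P0 and at 496 CPM against 17.1 CPM at E16.5. The mesenchymal transcription factor Prrx1 stood at 477 CPM in P0 and 514 CPM in E16.5 cycling cells, against 30.9 and 39.8 CPM in the 20 P0 and 159 E16.5 cells with blood markers. It had a UMI in 98.2% and 97.6% of cycling cells, at median depths of 19737.5 and 22779 UMIs, against 20.0% and 11.3% of blood-marked cells, at 9596 and 10195 UMIs. Twist1, another such factor, stood at 232 and 211 CPM in cycling cells against 46.4 and 20.5 CPM in blood-marked cells. The median member held 9 Mki67 and 16 Top2a UMIs at P0, and 8 and 15 at E16.5, as description of what the rule used.

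At the edge of the rule, 19 P0 and 55 E16.5 members held a single UMI of each gene, and their Cenpf stood at 77.9 and 45.2 CPM. The 340 and 805 members with at least 2 UMIs of each gene had 591 and 558 CPM. Cells with a UMI of only 1 of the genes, 312 at P0 and 649 at E16.5, fell outside both classes and had 13.2 and 29.0 CPM. Members with 2 to 3 Col9a1 UMIs per 10000 were 14 at P0 and 58 at E16.5, and their Col2a1 stood at 826 and 577 CPM. The 15 and 30 cells just over the limit, at 3 to 4, had 1727 and 755 CPM.

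Markers of other cell types were rare with 1 exception. Cells with at least 2 genes of a list at 2 or more UMIs each numbered 3 of 396 for endothelial, 1 for blood, 4 for muscle and 0 for neural, epithelial and erythroid lists at P0. At E16.5 they numbered 3 of 1006 for endothelial, 1 for blood, 21 for muscle, 17 for neural and Schwann, 1 for epithelial and 0 for erythroid genes. A count of 0 allows a share of up to 0.758% at P0 and 0.298% at E16.5. The mural list marked 191 P0 and 328 E16.5 members, and 9 and 11 once Cspg4 and Ndufa4l2, both widespread in these libraries, were left out. Summed over its list, muscle RNA stood at 15.1 CPM in cycling cells against 24.5 CPM in non-cycling cells at P0, and at 40.2 CPM against 134 CPM at E16.5. Blood RNA stood at 8.46 CPM against 15.8 CPM at P0 and at 14.0 CPM against 49.8 CPM at E16.5. Neural and Schwann RNA went the other way, at 16.1 CPM against 13.9 CPM at P0 and at 38.3 CPM against 27.4 CPM at E16.5. That list marked 1.69% of E16.5 cycling against 0.511% of E16.5 non-cycling cells, and the muscle list 2.09% against 1.53%. At P0 the neural list marked 0.21% of non-cycling cells. Cycling cells were the deeper class, as given above. Endothelial RNA stood between 18.3 and 22.9 CPM in the 4 classes, and Pecam1 and Ptprc are at 0 by the rule.

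Cycling cells made up 31.2% (29.6 to 32.9) of the 3222 cells within the Col9a1, Ptprc and Pecam1 limits at E16.5, 18.5% (16.9 to 20.3) of 2136 at P0 and 6.72% (6.1 to 7.38) of 6015 at 13w. When each cell was thinned to 5000 UMIs the E16.5 share was 22.6% (21.2 to 24.2), the P0 share 14.8% (13.3 to 16.5) and the 13w share 6.60% (5.95 to 7.31). Thinning left out 381, 231 and 1022 shallower cells. The order of the 3 libraries was the same in both counts. The intervals of neighbouring stages did not overlap, but they count cells of 1 library each and give no spread between libraries. As background, hypertrophic cells with at least 10 Col10a1 UMIs per 10000 are taken to have left the cycle. Without thinning, both genes were present in 4.37% of 252 such cells at E16.5, 3.71% of 566 at P0 and 1.77% of 283 at 13w. Their median depths were 46464, 35815.5 and 31110 UMIs. After thinning the shares were 0.823% of 243 cells at E16.5, 1.15% of 524 at P0 and 0.719% of 278 at 13w. The median depths of these cells before thinning were 46822, 37411.5 and 31379 UMIs. At 13w, 19 of the 404 cycling cells carried blood markers. Blood RNA summed over its list stood at 2903 CPM in the 404 cells as a whole, against 14.0 CPM in E16.5 and 8.46 CPM in P0 cycling cells. Col2a1 stood at 1675 CPM in 13w cycling cells, against 159 CPM at E16.5 and 250 CPM at P0. The rule thus did not choose a like population at 13w.

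**Figure D1:**
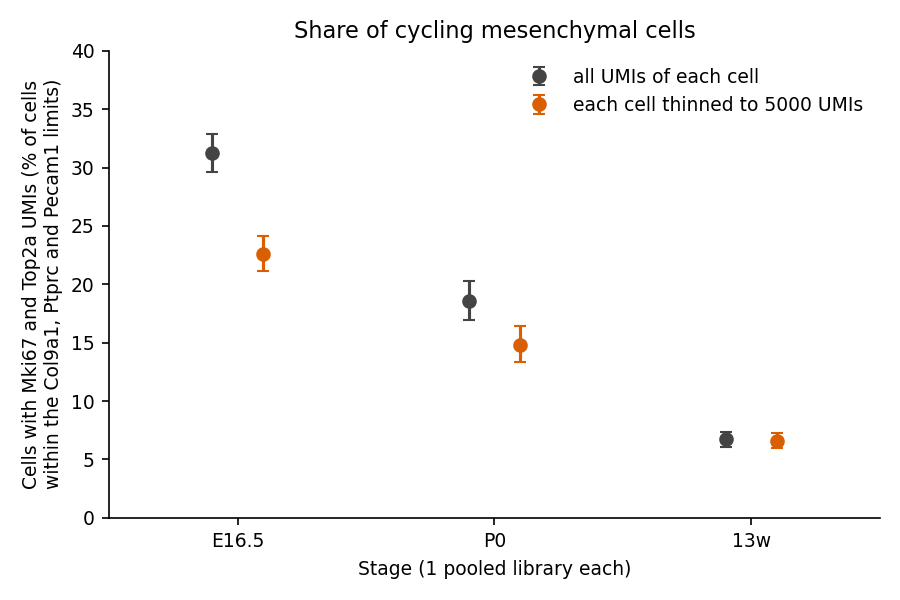
Share of cycling mesenchymal cells at each stage in percent, with exact 95% intervals that cover counting error only (1 pooled library per stage). Grey points use all UMIs and orange points use each cell thinned to 5000 UMIs. Both series run from E16.5, the highest, to 13w, the lowest. The 13w cells of the rule are not a like population, with more Col2a1 and blood RNA.

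Members differed in where they stood in the cycle. In each cell the UMIs of 30 replication genes and 36 mitosis genes (Mki67 and Top2a are in neither list) were counted per 10000 UMIs. The median P0 member held 22.2 replication UMIs (10th to 90th percentile 7.56 to 50.6) and 71.0 mitosis UMIs (13.5 to 129). The median E16.5 member held 27.8 replication UMIs (10.0 to 62.5) and 56.5 mitosis UMIs (7.77 to 142). Non-cycling cells held medians of 4.33 and 1.42 at P0, and 7.44 and 2.00 at E16.5.

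The mitosis share, mitosis UMIs over the sum of both lists, had a median of 75.8% at P0 and 66.3% at E16.5. In the 404 cells of the same rule at 13w, which differ in make-up as given above, it was 86.3%. Members with a share over 66.7% made up 63.1% at P0 (58.2 to 67.9) and 49.7% at E16.5 (46.6 to 52.8). Members with a share under 33.3% made up 11.9% at P0 (8.85 to 15.5) and 24.2% at E16.5 (21.5 to 26.9). These ranges are not cell types, and 74 P0 and 177 E16.5 members lay within 5 points of a cut. The replication-weighted end of the cycle held a smaller part of the P0 members than of the E16.5 members in these 2 libraries. The intervals did not overlap, but they cover counting error only. Members also differed in depth, with medians of 19737.5 UMIs at P0 and 22779 at E16.5, and the mitosis share was not computed after thinning.

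**Figure D2:**
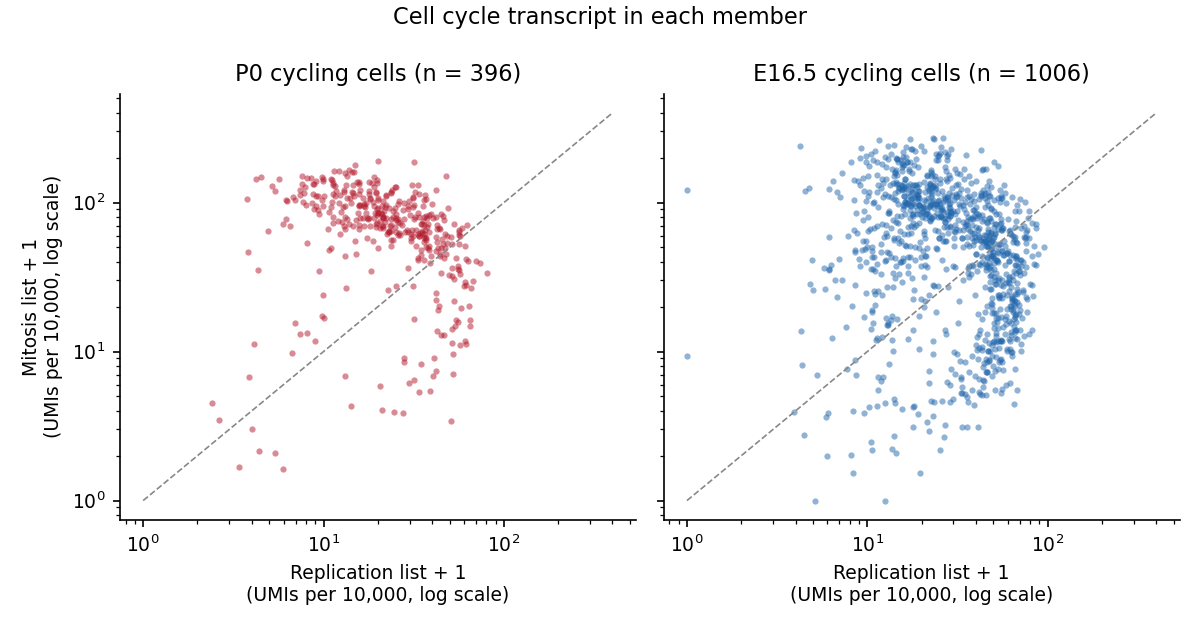
Replication list UMIs (horizontal) against mitosis list UMIs (vertical) per 10000 UMIs in each member, both plus 1 on log scales; the dashed line marks equal values. Points are 396 P0 cells (left) and 1006 E16.5 cells (right), and the dense lower right arm of replication-weighted cells is better filled at E16.5.

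The D-type cyclins Ccnd1 and Ccnd2, which drive cells through G1, stood lower as the mitosis share rose. Ccnd1 stood at 139 CPM in P0 members under the lower cut, 96.1 CPM between the cuts and 52.3 CPM over the upper cut. At E16.5 the same ranges had 405, 254 and 191 CPM. Ccnd2 stood at 223, 94.6 and 63.6 CPM across the ranges at P0, and at 393, 247 and 157 CPM at E16.5. Both cyclins were thus lowest in the most mitotic members of each library. Cdkn2c and Cdkn2d, inhibitors of the kinases that D cyclins activate, ran the other way. Cdkn2c stood at 35.5, 98.4 and 160 CPM at P0 and at 18.9, 49.6 and 71.1 CPM at E16.5, and Cdkn2d at 56.4, 141 and 212 CPM at P0 and 41.7, 95.1 and 133 CPM at E16.5. Col1a1 and Acan showed no such order across the ranges. Col1a1 stood at 3970, 3491 and 3999 CPM at P0 and at 1366, 1208 and 1380 CPM at E16.5, and Acan at 552, 510 and 600 CPM at P0 and at 175, 183 and 175 CPM at E16.5. Some other identity genes were ordered like the D cyclins at P0 but not at E16.5. Crabp1, a retinoic acid binding protein, stood at 99.3, 81.9 and 55.3 CPM at P0 and at 305, 310 and 284 CPM at E16.5, and Igf1 at 99.3, 65.3 and 54.6 CPM at P0 and at 119, 147 and 142 CPM at E16.5. Pdgfra, a receptor of mesenchymal cells, was highest over the upper cut in both libraries, at 95.6, 53.9 and 123 CPM at P0 and at 58.9, 62.5 and 99.4 CPM at E16.5.

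A gene was called higher or lower here at a ratio of at least 2 with a counting interval that excluded 1 and at least 10 CPM in the higher class. Against non-cycling cells of the same library, 6.84% of 8073 measured genes were higher and 1.18% lower at P0, and 4.9% of 8323 were higher and 2.21% lower at E16.5. Cycle genes were among those that chose the cells or run with them, so their counts only describe the classes. All 29 measured replication genes were higher at P0 (median log2 ratio 2.29) and 20 of 30 at E16.5 (1.47). All 36 mitosis genes were higher in both (6.11 and 5.35). Of 20 chromatin and spindle genes outside those lists, 17 were higher at P0 (2.12) and 13 at E16.5 (1.37).

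Among genes of at least 100 CPM, and after Top2a and Mki67 themselves, the largest ratios in both libraries included those of Esco2 and Aurkb. Esco2, which ties sister chromatids together, stood at 130 CPM in P0 cycling cells against 0.603 CPM in P0 non-cycling cells, and Aurkb, a kinase of the centromere, at 146 CPM against 0.783 CPM. At E16.5 these genes stood at 101 CPM against 0.733 CPM and at 115 CPM against 1.42 CPM.

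Replication genes were less separated at E16.5, where non-cycling cells held more of them. Mcm2, a helicase subunit, stood at 23.4 CPM in P0 cycling cells against 4.76 CPM in P0 non-cycling cells, and at 36.9 CPM against 23.8 CPM at E16.5. Uhrf1, which passes DNA methylation to the new strand, stood at 58.5 CPM against 2.23 CPM at P0 and at 64.7 CPM against 13.0 CPM at E16.5. Stmn1, a microtubule regulator, stood at 924 CPM against 40.8 CPM at P0 and at 1050 CPM against 210 CPM at E16.5. Between non-cycling cells of P0 and E16.5, 16 of 27 measured replication genes were lower at P0 and none higher (median log2 -1.13), beside 8.71% of 8326 genes lower and 5.38% higher. Under another scaling all ratios of that comparison shift up by 0.19 (TMM) or 0.21 (median of ratios) log2 units. Between the cycling cells, 1 of 30 was lower and none higher (-0.36). Non-cycling cells here are cells with no UMI of 2 genes, and how many of them had begun a cycle was not tested.

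Regulators of G1 differed in direction. Of 19 measured at P0, 5 were higher and 1 lower in cycling cells, and of 20 at E16.5, 3 were higher and 1 lower. Of all measured genes 6.84% were higher and 1.18% lower at P0, and 4.9% and 2.21% at E16.5. Cdkn2c stood at 132 CPM in P0 cycling cells against 15.0 CPM in P0 non-cycling cells, a log2 ratio of 3.13 (2.93 to 3.34), and at 52.8 CPM against 5.43 CPM at E16.5, a log2 ratio of 3.28 (3.00 to 3.57). Cdkn2d stood at 179 CPM against 33.2 CPM at P0, a log2 ratio of 2.43 (2.29 to 2.57), and at 101 CPM against 27.2 CPM at E16.5, a log2 ratio of 1.89 (1.75 to 2.02). A UMI of Cdkn2c was present in 82.6% of P0 and 56.7% of E16.5 cycling cells. Rbl1, a pocket protein that binds E2F factors, was higher in both libraries, at 26.3 CPM against 3.01 CPM at P0 and 17.9 CPM against 5.72 CPM at E16.5.

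Ccnd2 was the G1 gene called lower at P0, at 87.2 CPM in cycling cells against 222 CPM in non-cycling cells, a log2 ratio of -1.35 (-1.46 to -1.23). At E16.5 it stood at 238 CPM against 383 CPM (-0.69), short of the call. Without the Col9a1 limit the P0 ratio was -0.48. Ccnd1 hardly differed between the classes, at 72.0 CPM against 76.7 CPM at P0 and 259 CPM against 251 CPM at E16.5. The inhibitors Cdkn1a (p21) and Cdkn1c (p57) were not called lower in cycling cells. Cdkn1a stood at 165 CPM against 136 CPM at P0 and 40.9 CPM against 35.2 CPM at E16.5, and Cdkn1c at 1118 CPM against 1155 CPM and at 1809 CPM against 2158 CPM. Without the Col9a1 limit, which adds chondrocytes to both classes, the log2 ratios of Cdkn1a were -0.52 at P0 and -1.30 at E16.5 and those of Cdkn1c -0.90 and -1.19. Gas1, a surface protein known as a growth arrest gene and a hedgehog co-receptor, was the G1 gene called lower at E16.5, at 78.9 CPM against 206 CPM (-1.39), and at -0.59 in the depth window.

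**Figure D3:**
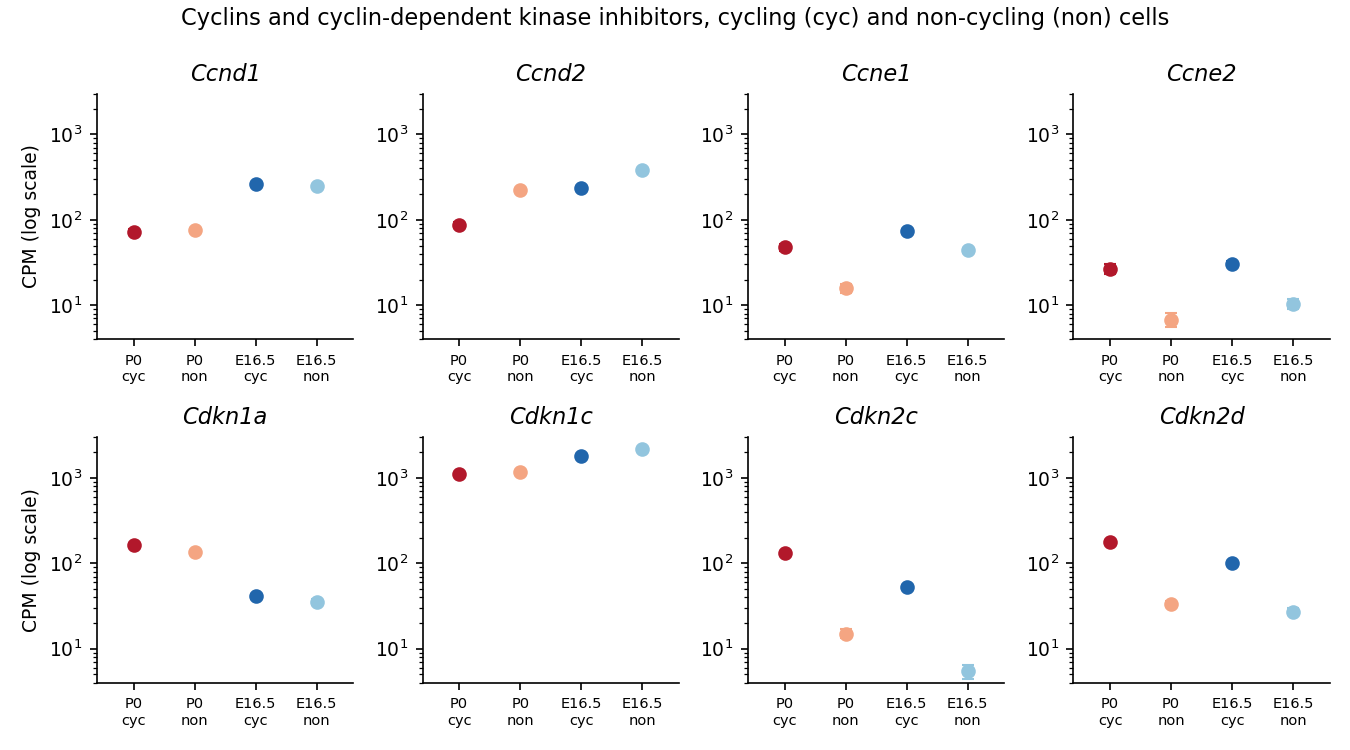
CPM on a log scale of 8 cyclins and inhibitors in cycling (cyc) and non-cycling (non) cells of P0 and E16.5, with exact Poisson 95% intervals that are mostly smaller than the points. Cdkn2c and Cdkn2d separate cycling from non-cycling cells in both libraries, while Ccnd1 and Cdkn1a separate P0 from E16.5.

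Genes of mesenchymal identity barely separated the classes at P0. Of 22 fibroblast genes measured there none was higher and 1 lower in cycling cells, beside 6.84% of all measured genes higher and 1.18% lower. Of 17 immature mesenchyme genes, 14 jaw patterning genes, 17 cartilage genes and 9 tendon genes, none was called either way. The medians of these lists lay between -0.22 and -0.01, beside 0.06 for all measured genes, and the sign of 4 of the 5 changed under some alternatives. The fibrous matrix gene Postn stood at 1813 CPM in P0 cycling cells against 1656 CPM in P0 non-cycling cells. Aggrecan (Acan), the main cartilage proteoglycan, stood at 573 CPM against 507 CPM (and at a log2 ratio of -0.89 without the Col9a1 limit), and Runx2, a bone-lineage transcription factor, at 120 CPM against 128 CPM. The log2 ratios of Postn, Acan and Runx2 were 0.13, 0.17 and -0.09.

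The P0 identity genes called lower included genes of bone matrix and 1 gene of the joint surface, Prg4. Of 14 joint surface genes measured, 1 was lower and none higher (median -0.09). Of 10 osteogenic genes 2 were lower and none higher. Of all measured genes 1.18% were lower. Ibsp, a bone matrix protein, stood at 34.9 CPM in cycling cells against 222 CPM in non-cycling cells, but 10 cells held 79.4% of the non-cycling UMIs and the log2 ratio of -2.67 became -1.31 in the depth window. Prg4, the lubricant of the joint surface, stood at 6.16 CPM against 17.1 CPM, with 86.3% and 52.7% of its UMIs in 10 cells. Ogn and Omd, small proteoglycans of fibrous tissue and bone, stood at 37.3 CPM against 132 CPM and at 12.1 CPM against 34.6 CPM. Sfrp2, a secreted Wnt modulator of fibroblasts, stood at 41.7 CPM against 97.1 CPM (-1.22), but its log2 ratio was 0.15 in the depth window, and that of Ogn was -0.63. Igfbp5, an insulin-like growth factor binding protein, and Ccn2, a matricellular growth factor, also missed the call in that window, with -0.43 and -0.84 in place of -1.21 and -1.52. Cd200, a surface glycoprotein listed among progenitor candidates, stood at 20.4 CPM against 46.2 CPM (-1.18, and -1.14 in the depth window). Without the Col9a1 limit the calls of Ogn (-0.92), Omd (-0.92), Prg4 (-0.85), Sfrp2 (-0.35) and Igfbp5 (-0.29) were lost.

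Other genes with at least 100 CPM called lower at P0 included Zfas1, a non-coding host of small nucleolar RNAs, at 149 CPM in cycling cells against 371 CPM in non-cycling cells, and Aldh1a3, which makes retinoic acid, at 53.0 CPM against 122 CPM. Slc6a6, a taurine transporter, stood at 48.6 CPM against 110 CPM, and Ctsl, a lysosomal protease, at 113 CPM against 246 CPM. Of these 4, the depth window kept the call of Zfas1 (-1.10) and not of Aldh1a3 (-0.87), Slc6a6 (-0.64) or Ctsl (-0.89).

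At E16.5 the fibroblast genes stood lower in cycling cells. Of 23 measured, 10 were lower and none higher, with a median log2 ratio of -0.80 beside -0.01 for all genes. Of all measured genes 2.21% were lower and 4.9% higher. Col14a1, a collagen of fibrous tissue, stood at 73.8 CPM in cycling cells against 245 CPM in non-cycling cells, a log2 ratio of -1.73 (-1.81 to -1.65). Sfrp2 stood at 219 CPM against 778 CPM (-1.83), and Dpt, a matrix protein of dermal and other fibroblasts, at 12.5 CPM against 47.8 CPM (-1.94). In the depth window 43 genes in all were lower. There 4 of 23 fibroblast genes were lower (median -0.42), with Col14a1 at -1.02, Sfrp2 at -1.03 and Dpt at -1.30. These 3 genes kept their call in the window with a smaller ratio, while Igf1 (-0.42) and Mfap4 (-0.67) did not.

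Genes of the insulin-like growth factor (IGF) axis also stood lower. Of 14 measured, 7 were lower at E16.5 and none higher (median -0.74), and in the depth window none was called (-0.27). Of all measured genes 2.21% were lower at E16.5 and 4.9% higher. Igf1 stood at 138 CPM in cycling cells against 322 CPM in non-cycling cells, Igfbp3 at 28.9 CPM against 97.0 CPM, and Igfbp4 at 270 CPM against 606 CPM. The receptor Igf1r stood at 114 CPM against 108 CPM. Of 10 joint surface genes 3 were lower (Ptgis, Clu and Htra1), and none in the depth window.

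Single genes of other lists were also lower at E16.5. Osr1, a transcription factor of connective tissue progenitors, stood at 15.9 CPM in cycling cells against 63.8 CPM in non-cycling cells (-2.00, and -1.20 in the depth window). Fgf18, a growth factor of the skeleton, stood at 9.75 CPM against 34.9 CPM (-1.84 and -1.33). Lgr5, a receptor for R-spondins, stood at 17.8 CPM against 52.6 CPM (-1.56 and -0.72). Cxcl12, a chemokine of stromal cells, stood at 39.6 CPM against 99.8 CPM (-1.33 and -0.39). Ibsp stood at 17.9 CPM against 645 CPM, and 10 cells held 93.7% of the non-cycling UMIs. The muscle genes Myog, Actc1 and Ttn were called lower too, with 97.3%, 95.1% and 89.9% of their non-cycling UMIs in 10 cells, and the ratios of Myog and Ttn turned to 0.27 and 0.63 once cells with markers of other types were left out. Susd5, a surface protein of cartilage cells, was the list gene outside the cycle called higher, at 22.9 CPM against 10.9 CPM (1.07), and its ratio was 0.57 in the depth window and -1.20 without the Col9a1 limit.

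Across the Wnt, hedgehog, BMP and TGF-beta, FGF and Notch lists, no gene was called higher in cycling cells in either library. Of all measured genes 6.84% were higher at P0 and 4.9% at E16.5. No gene of these lists was called lower at P0. At E16.5, 2 of 17 Wnt, 1 of 10 hedgehog, 1 of 22 BMP and TGF-beta and 1 of 9 FGF genes were lower. Of all measured genes 2.21% were lower there. The receptor Notch1, with the highest ratio of these lists at P0, stood at 34.7 CPM in cycling cells against 19.2 CPM in non-cycling cells at P0, a log2 ratio of 0.86 (0.62 to 1.09), and at 27.3 CPM against 18.5 CPM at E16.5, a log2 ratio of 0.56 (0.38 to 0.75). Over all alternatives its ratio ranged from 0.66 to 0.93 at P0 and from 0.52 to 0.80 at E16.5. Apcdd1, a Wnt inhibitor, had ratios of 0.61 and 0.71, and Lef1, a transcription factor of the Wnt pathway, 0.54 and 0.22. The hedgehog target Gli1 stood at 47.3 CPM against 49.5 CPM at P0 and at 34.7 CPM against 32.4 CPM at E16.5. The hedgehog receptor Ptch1, itself a target, stood at 160 CPM against 174 CPM at P0 and at 124 CPM in both classes at E16.5. Without the Col9a1 limit the ratios of Apcdd1 were 1.15 and 1.31 and those of Gli1 0.80 and 0.77.

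**Figure D4:**
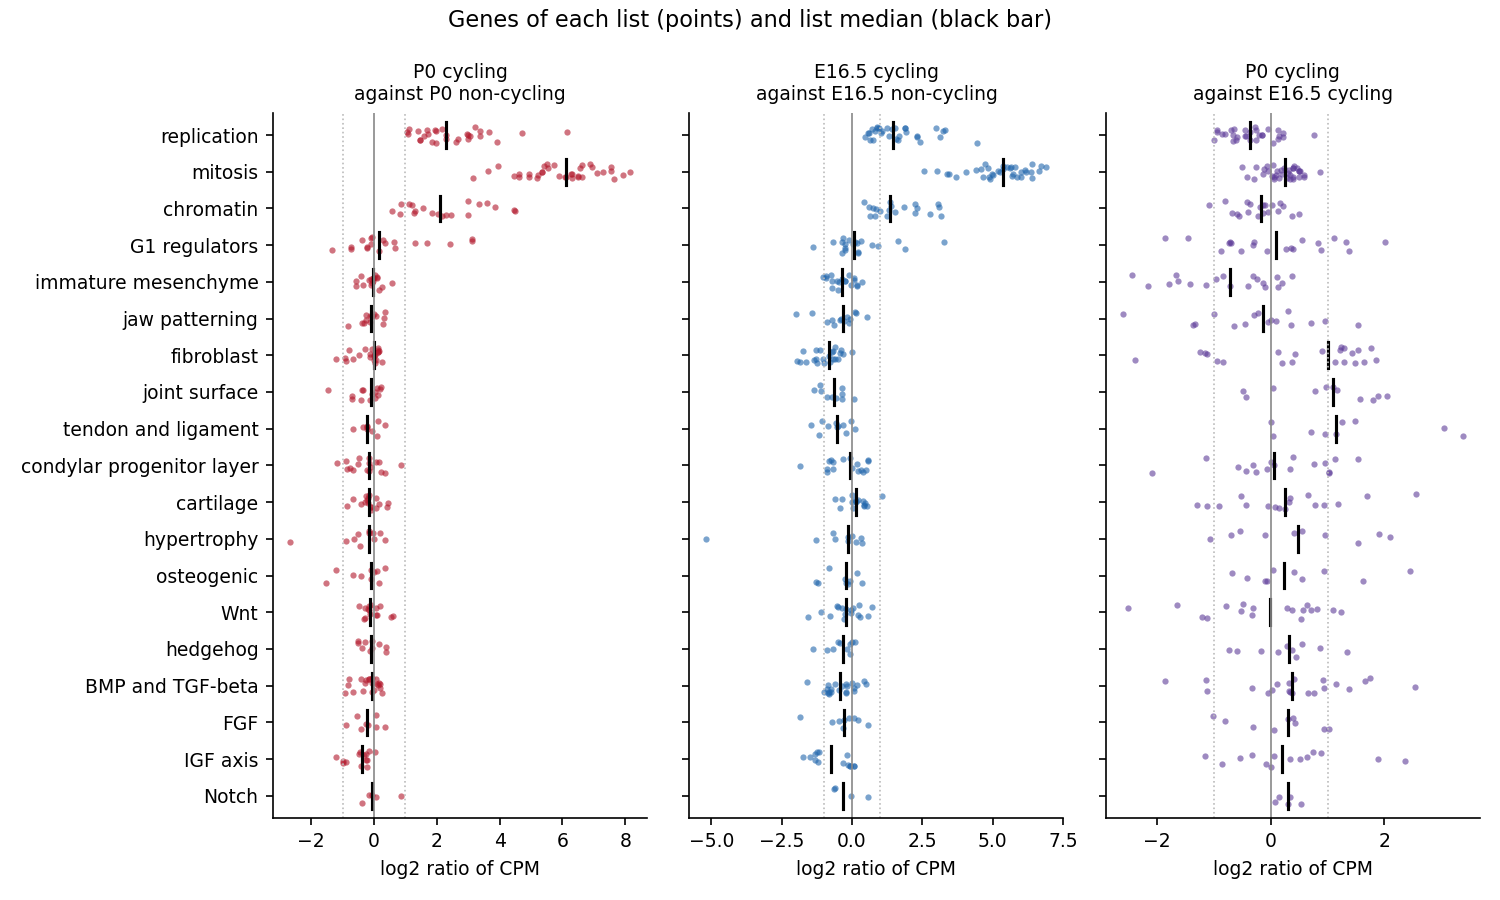
Log2 ratio of CPM for each measured gene (points) of 19 lists (rows) in 3 comparisons (columns), with the list median as a black bar and dotted lines at 2-fold. Cycle lists stand apart in the first 2 columns; in the third, the immature mesenchyme median lies left of 0 and the fibroblast, joint surface and tendon medians right of it. Horizontal scales differ between columns.

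Cells were also grouped by identity gene, which does not use a sum over unequal cells. After thinning to 5000 UMIs, the cycling share was compared between cells with and without a UMI of each of 24 genes. At P0 it was higher with the gene for 8 of 24 genes and at E16.5 for 10 of 24. At 3000 UMIs the counts were 12 and 8, and without thinning they were 20 and 16, so they give no order of the stages.

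At E16.5 the cycling share was lower among cells with some fibroblast and progenitor genes and not with others. It was 18.4% of 927 cells with Sfrp2 (16.0 to 21.1), against 24.4% of 2127 cells without it (22.6 to 26.3). It was 18.7% with Col14a1 against 23.8% without it, 16.6% with Osr1 against 23.4%, 19.3% with Igf1 against 24.0%, and 16.7% with Lgr5 against 23.5%. Fbn2, an embryonic microfibril protein, gave 20.6% against 24.96%. For these 6 genes the intervals did not overlap, and for no gene was the share higher by that measure. At 3000 UMIs the intervals of Sfrp2 and Osr1 were still apart, those of Col14a1, Igf1, Lgr5 and Fbn2 overlapped, and Ccnd1 was apart with 13.3% against 20.03%. At 5000 UMIs, cells with Gli1 held 26.9% (22.9 to 31.2) against 21.9% (20.3 to 23.5), with overlapping intervals. The share hardly differed with Pdgfra, at 22.7% against 22.6%, or with Nt5e, at 22.9% against 22.6%. With Crabp1 it was 23.2% against 22.0%, with overlapping intervals.

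At P0 the intervals were apart for 4 genes, of which Fbn2 was also apart at E16.5. The share was higher among cells with Cdkn1a, at 19.2% of 811 cells (16.6 to 22.1) against 12.0% of 1238 cells without it (10.2 to 13.9). It was 2.56% of the 78 cells with Prg4 (0.312 to 8.96), against 15.3% of 1971 cells without it (13.8 to 17.0). The share was 11.3% with Fbn2 against 18.3% without it. With Col2a1 it was 13.1% against 18.5% at 5000 UMIs, but the sign of this difference turned without thinning, to 5.57 points higher with the gene. For Sfrp2, Col14a1, Igf1, Osr1 and Lgr5 the P0 intervals overlapped. When cells were thinned to 3000 UMIs no P0 gene had intervals apart.

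**Figure D5:**
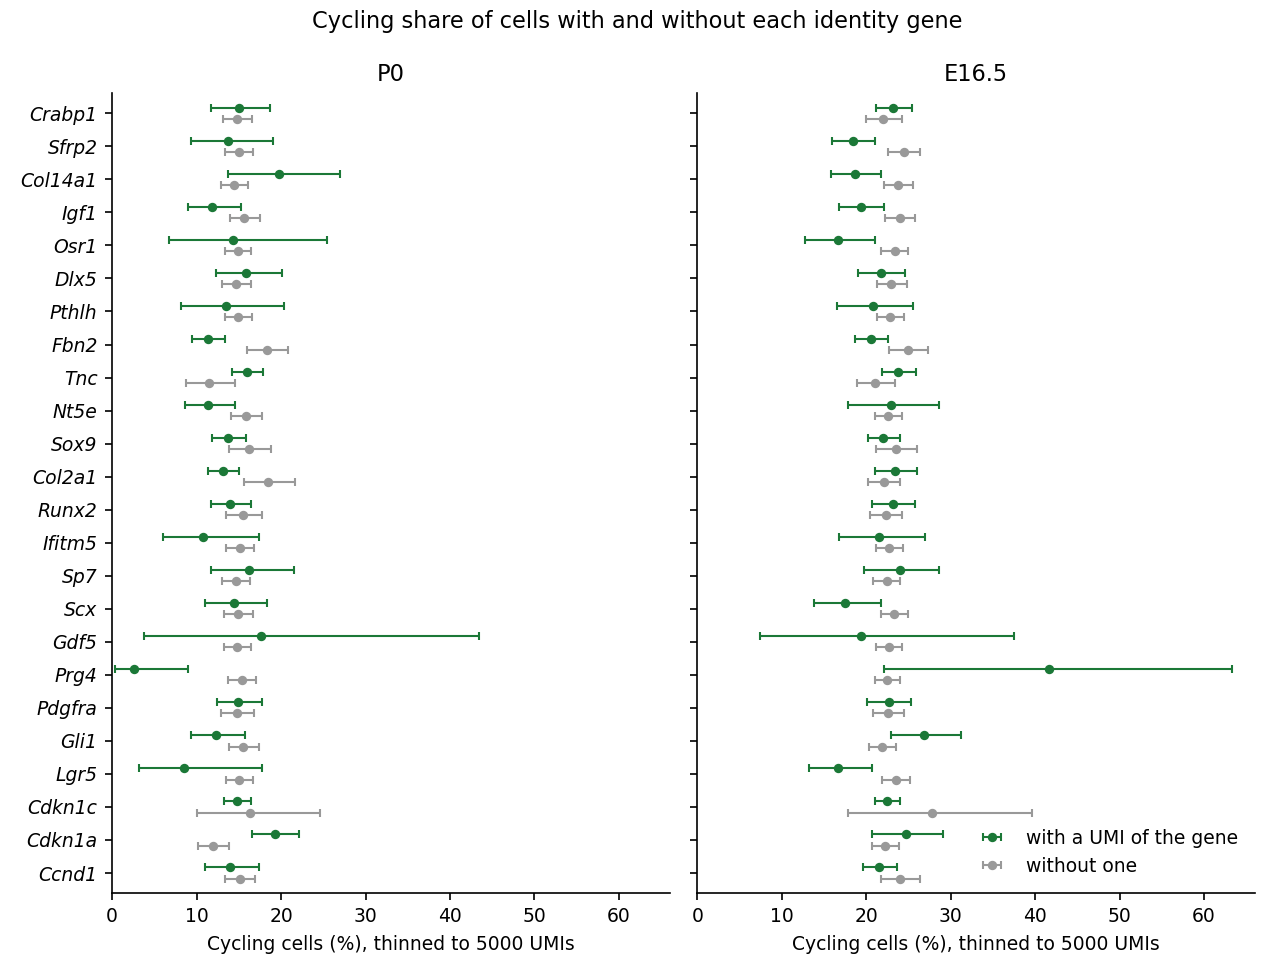
Percent of cycling cells among cells with (green) and without (grey) a UMI of each identity gene, after thinning each cell to 5000 UMIs, with exact 95% intervals. At P0 (left) Cdkn1a, Fbn2, Col2a1 and Prg4 have intervals apart, and at E16.5 (right) Sfrp2, Col14a1, Igf1, Osr1, Fbn2 and Lgr5.

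Cycling cells of P0 were then set against cycling cells of E16.5. Of 8319 measured genes, 6.38% were higher and 5.65% lower in P0 cycling cells than in E16.5 cycling cells. Stage and library cannot be told apart here. P0 cycling cells had a median mitochondrial share of 3.53% against 2.13% in E16.5 cycling cells, and of 18 immediate early and heat shock genes, which tissue digestion can induce, 4 were higher and 1 lower at P0 (median log2 0.37); their part in the stage differences was not tested. Non-cycling cells come from the same 2 libraries, so their stage values, given for the main lists below, are not a second observation, and whether the stage differences of the 2 classes differ was not tested.

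Immature mesenchyme genes stood lower in cycling cells at P0, 7 of 19 lower and none higher (median log2 -0.72). In non-cycling cells 9 of 19 were lower at P0 and none higher (-0.88). Of all measured genes 5.65% were lower at P0 in cycling cells and 8.71% in non-cycling cells. Crabp1 stood at 66.4 CPM in P0 cycling cells against 296 CPM in E16.5 cycling cells, a log2 ratio of -2.16 (-2.28 to -2.03), and at 56.0 CPM against 318 CPM in non-cycling cells. Mdk, a growth factor of embryonic tissue, stood at 151 CPM against 333 CPM, and Igf2bp1, a fetal RNA-binding protein, at 10.8 CPM against 33.4 CPM. Over the alternatives the median of the list lay between -0.79 and -0.48, and that of Crabp1 between -2.59 and -1.89. Among jaw patterning genes, Meis2 stood at 1.69 CPM against 10.2 CPM (-2.60), Dlx6 at 20.1 CPM against 40.1 CPM, and Foxc1, called higher, at 16.3 CPM against 5.66 CPM.

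The D cyclins and p21 also differed by stage. Ccnd1 stood at 72.0 CPM in P0 cycling cells against 259 CPM in E16.5 cycling cells, a log2 ratio of -1.85 (-1.97 to -1.73), and Ccnd2 at 87.2 CPM against 238 CPM (-1.45). Cdkn1a stood at 165 CPM against 40.9 CPM, a log2 ratio of 2.01 (1.89 to 2.13), and in non-cycling cells at 136 CPM against 35.2 CPM. Cdkn2c stood at 132 CPM against 52.8 CPM (1.32), and Btg2, an antiproliferative gene that p53 is known to induce, at 115 CPM against 44.5 CPM (1.37). Of 36 mitosis genes none was called (median 0.26), beside 6.38% of all measured genes higher and 5.65% lower. Members of both stages were chosen by transcripts of that programme, so this count only describes them. Within the range of members with a mitosis share over 66.7%, P0 members held Ccnd1 at 52.3 CPM against 191 CPM in E16.5 members. Cdkn1a stood at 142 CPM against 41.9 CPM in that range. The part of cycle position in these stage differences was not tested. In cells of the same rule over all 3 stages, Ccnd1 stood at 259 CPM at E16.5, 72.0 CPM at P0 and 19.1 CPM at 13w, and Cdkn1a at 40.9, 165 and 824 CPM. The 13w cells differ in make-up, with Col2a1 at 1675 CPM there against 159 CPM at E16.5 and 250 CPM at P0. Without the Col9a1 limit the P0 against E16.5 ratios were -1.22 for Ccnd1 and 1.60 for Cdkn1a.

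Matrix genes stood higher in P0 cycling cells. Of 22 fibroblast genes 11 were higher and 4 lower (median 1.01, with 0.53 to 1.18 over the alternatives). Postn stood at 1813 CPM in P0 cycling cells against 505 CPM in E16.5 cycling cells, a log2 ratio of 1.84 (1.81 to 1.88), and decorin (Dcn), a collagen-binding proteoglycan, at 472 CPM against 139 CPM (1.76). Over the alternatives Postn lay between 1.23 and 1.94 and Dcn between 1.12 and 1.86. The 4 lower were Sfrp2 at 41.7 CPM against 219 CPM (-2.39), Col14a1, Igf1 and Angptl1. Structural collagens, Dcn, Lum, Fn1, Thy1 and Postn made up the higher genes. In non-cycling cells 4 of 23 fibroblast genes were higher and 8 lower at P0 (median 0.05). Of all measured genes 6.38% were higher and 5.65% lower at P0 in cycling cells, and 5.38% and 8.71% in non-cycling cells. Col1a1, the main collagen of bone and fibrous tissue, stood at 3867 CPM in P0 cycling cells against 1328 CPM in E16.5 cycling cells, and at 4010 CPM against 2318 CPM in non-cycling cells.

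Tendon and joint surface genes stood higher as well. Of all measured genes 6.38% were higher and 5.65% lower at P0 in cycling cells, and 5.38% and 8.71% in non-cycling cells. The shares over all genes in the depth window are not given here, so the counts in that window have no such background. Of 9 tendon genes 5 were higher and none lower (1.14), led by the collagen-binding proteoglycan Fmod at 372 CPM in P0 cycling cells against 35.9 CPM in E16.5 cycling cells, a log2 ratio of 3.38 (3.27 to 3.48). The tendon transcription factor Scx stood at 44.2 CPM against 18.6 CPM (1.25), but at 0.50 in the depth window, where 3 of 10 tendon genes were higher and 1 lower. In non-cycling cells 3 of 11 tendon genes were higher and 1 lower at P0 (0.56). Of 11 joint surface genes 6 were higher and none lower (1.10), among them the protease Htra1 at 319 CPM against 77.6 CPM (2.04), and 1.44 in the depth window, where 4 of 11 were higher. In non-cycling cells 5 of 14 joint surface genes were higher and 1 lower at P0 (0.66). Cartilage genes were mixed, with 3 of 17 higher and 2 lower. Acan stood at 573 CPM against 177 CPM (1.69), Comp at 22.5 CPM against 3.81 CPM (2.56), and Sox6, a transcription factor of chondrogenesis, at 43.0 CPM against 93.1 CPM (-1.11, and -0.86 in the depth window). Tnc, a matrix glycoprotein of the condylar progenitor layer list, stood at 723 CPM against 332 CPM (1.12), and Nt5e, the surface enzyme CD73, at 45.8 CPM against 22.5 CPM (1.03). Members hold little Col9a1 by rule, so these values do not describe chondrocytes.

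Genes within 1 signalling pathway lay on both sides. Of 21 BMP and TGF-beta genes 5 were higher and 3 lower in P0 cycling cells. Of all measured genes 6.38% were higher and 5.65% lower. The ligand Tgfb1 stood at 77.7 CPM against 13.3 CPM in E16.5 cycling cells, a log2 ratio of 2.54 (2.35 to 2.74), and the receptor Tgfbr2 at 38.0 CPM against 17.1 CPM. The ligand Bmp7 stood at 15.1 CPM against 33.4 CPM (-1.14, and -0.51 without the Col9a1 limit). Of 18 Wnt genes 2 were higher and 4 lower: the receptor Fzd2 stood at 49.6 CPM against 107 CPM and the ligand Rspo3 at 2.66 CPM against 15.1 CPM. The receptor Fgfr2 stood at 314 CPM against 154 CPM (1.02, and 0.76 without the Col9a1 limit), and the binding protein Igfbp6 at 22.3 CPM against 4.33 CPM (2.37).

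Among genes with at least 100 CPM, most of the largest stage differences lay outside these lists. Mt2 and Mt1, metal-binding metallothioneins, stood at 153 CPM in P0 cycling cells against 3.41 CPM in E16.5 cycling cells (5.48) and at 404 CPM against 32.3 CPM (3.64). In non-cycling cells they stood at 239 CPM against 4.16 CPM and at 572 CPM against 25.6 CPM. Crispld2, a secreted protein, stood at 227 CPM against 12.7 CPM (4.16), Olfml2b, a secreted matrix protein, at 258 CPM against 33.4 CPM (2.95), and Tsc22d3, a glucocorticoid-induced leucine zipper protein, at 229 CPM against 44.7 CPM (2.36). Plaur, the urokinase receptor, stood at 112 CPM against 17.3 CPM (2.69). Over the alternatives Mt1 lay between 2.40 and 4.45 and Mt2 between 4.64 and 5.96.

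Lower at P0 were Sfrp2, Crabp1 and Ccnd1, and after them Hspd1, a mitochondrial chaperone, at 234 CPM in P0 cycling cells against 824 CPM in E16.5 cycling cells (-1.82), and the polyamine enzyme Srm at 68.4 CPM against 223 CPM (-1.71). Uchl3, a ubiquitin hydrolase, stood at 36.0 CPM against 111 CPM (-1.62), and Snrpd3, a splicing factor, at 108 CPM against 321 CPM (-1.57). In non-cycling cells Hspd1 stood at 209 CPM against 572 CPM and Srm at 85.9 CPM against 221 CPM. Mrpl36, a protein of the mitochondrial ribosome, stood at 34.9 CPM in P0 cycling cells against 113 CPM in E16.5 cycling cells (-1.70). Without the Col9a1 limit Srm was at -1.05 and Hspd1 at -1.69.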

How the data were processed

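Single-cell 3′ RNA libraries of condyles at E16.5, P0 and 13w, 1 pooled library per stage, were analysed from the UMI count matrices the authors deposited. Per the file headers the counts were made with Cell Ranger 6.1.2, and per the submitters' processing notes with build GRCm39. They are not normalized. Total UMIs were 103827875 (E16.5), 98486931 (P0) and 115836876 (13w).

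UMIs were summed over the cells of a class and divided by the class total to give CPM. Class totals were 8279038 in P0 cycling, 16596832 in P0 non-cycling, 24932912 in E16.5 cycling and 20450737 in E16.5 non-cycling cells. With 1 library per stage no test across samples was possible. A gene was measured at 10 CPM or more in the higher class, and called at a ratio of 2 or more whose 95% conditional binomial interval excluded 1. These intervals treat UMIs as independent and so are narrow. Named genes were, per comparison, the 10 largest called ratios in each direction among genes of at least 100 CPM (leaving out mitochondrial, ribosomal, haemoglobin, sex-linked and predicted genes), up to 4 per list and direction, and a fixed set of identity genes. Not every gene that this rule names is reported here. Further genes in the text were taken from the lists after their values were seen. Members and lists were chosen with earlier results of these data known.

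Scrublet marked 1 P0 and 5 E16.5 cells automatically, too few to count as a working call, so no doublets were removed in the main values. An alternative removed the 146 and 181 highest-scoring cells. Among them were 2.78% of P0 and 6.56% of E16.5 cycling cells, against 0.700% and 0.702% of non-cycling cells. High scores were thus more common in the deeper cycling class, and how many members are doublets was not tested. Scripts used Python 3.11.15, numpy 2.4.6, scipy 1.17.1, pandas 2.3.3, scanpy 1.11.5, matplotlib 3.10.9, and R 4.3.3 with edgeR 4.0.16 for TMM factors. The calling step was tested on simulated counts.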

Additional observations from a re-analysis of the deposited data

Results flagged for a closer look

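In 6 named genes the log2 ratio of cycling to non-cycling cells lay on opposite sides of 0 in the 2 libraries, at least 1 apart. Only named genes measured in both libraries were searched, and both counting intervals had to exclude 0. The named genes include the largest ratios of each list, so the 6 are picked cases and give no share of all genes. The differences between the libraries were not tested. Col14a1 had a log2 ratio of 0.26 at P0 and -1.73 at E16.5, a difference of 1.99, and kept the opposite signs in cells of 10000 to 30000 UMIs, at 0.76 and -1.02. Htra1, a secreted protease, had 0.23 and -1.11 (difference 1.34), and 0.12 and -0.42 in that depth window. Its relative Htra3 had 0.34 and -0.85 (1.19), and 0.01 and -0.67 in the window. Lum, the proteoglycan lumican, had 0.14 and -1.03 (1.18). Snorc, a cartilage proteoglycan, had -0.67 and 0.54 (-1.20), and its E16.5 ratio was -0.26 when cells were thinned to 5000 UMIs. Rgs5, a mural cell gene, had -0.61 and 0.47 (-1.08), and 46.9% to 99.4% of its UMIs sat in 10 cells of each class.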

How the results depend on the processing

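No paired analysis was possible because each stage is 1 library. The share of cycling cells at P0 and E16.5 was 13.3% and 26.2% without cells carrying markers of other types, 15.9% and 24.98% with at least 2 UMIs of each gene in members, 14.0% and 28.3% with no Col9a1 limit, and 14.8% and 22.6% after thinning to 5000 UMIs. It was 29.6% at E16.5 with Col9a1 below 1 per 10000, and 24.6% at P0 in cells of 10000 to 30000 UMIs. Members with a mitosis share over 66.7% made up 68.2% at P0 and 53.9% at E16.5 with at least 2 UMIs of each gene.

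Genes called lower in cycling cells numbered 199 at P0 and 384 at E16.5 with no Col9a1 limit, 181 and 106 after thinning, and 43 at E16.5 in the depth window, against 95 and 184 in the main values. With a minimum of 1 CPM, 861 were higher and 412 lower at P0, 821 lower at E16.5, and 1092 higher and 1159 lower between stages. With 50 CPM these were 239 and 26 at P0, 175 and 51 at E16.5, and 210 and 134 between stages. Of the stage calls, 53.0% were higher in the main values and 64.3% under median-of-ratios scaling.

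Ratios that turned were Myog 0.27 and Ttn 0.63 (E16.5) and Tnnt1 0.58 (stages) without cells carrying other markers, and Myog 0.16, Ttn 0.45 and Rgs5 -0.033 (stages) with the mural list trimmed, an alternative chosen after seeing the data. With no Col9a1 limit Susd5 was at -1.20 (E16.5), and Chrdl1 0.16, Fgfrl1 0.24, Matn4 0.41, Mef2c 0.17 and Ucma 0.83 (stages). In the depth window Sfrp2 was at 0.15 (P0) and Tnmd at 0.14 (E16.5). Without thinning, 20 P0 and 16 E16.5 identity genes had a higher share, and Col2a1 at P0 was 5.57 points higher. The cause was not tested, beyond the cells or genes each alternative leaves out. Over 505 named ratios there were 7068 alternative values. Of these values 5274 stayed inside the main interval, 1780 lay outside it without turning a called ratio, and 14 turned the sign of a called ratio.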
